A study of Mus musculus with 8 samples.

Results

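The 4 mouse Hox clusters were examined for H3K4me3, a methylation mark on the tail of histone H3 that sits at active and poised promoters, in whole testes with and without H3f3b, a gene for the replacement histone H3.3. The clusters were taken as mm9 windows with edges set by position and not by any measured value. Their choice was made with earlier results of these data known. Hoxa was taken on chromosome 6 from 52.08 to 52.24 Mb and Hoxb on chromosome 11 from 96.04 to 96.26 Mb. Hoxc was taken on chromosome 15 from 102.73 to 102.90 Mb and Hoxd on chromosome 2 from 74.48 to 74.62 Mb. All enriched regions that overlapped a window were members. After the 4 lists had been merged where regions overlapped or touched, the windows held 15 of the 16519 merged regions of the series.

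Testes came from adult C57BL/6 mice of the genotype H3f3b WT/WT (WT) or H3f3b null (KO). H3K4me3 was precipitated in 2 libraries per genotype, WT66 and WT74 against KO67 and KO73, and the 4 input libraries of the series were not analysed here. The labels do not say how the null allele was made, whether other alleles were present, or whether the numbers stand for different animals. The p-values given here thus reflect the spread among these libraries only, and that spread may be technical. In a whole organ, fewer cells of a type that carries a mark and less of the mark per cell cannot be told apart. Gene positions in mm9 were not used, so neither testis marker genes nor H3f3b itself were checked, and no region was tied to a single gene.

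Hox genes encode homeodomain transcription factors that give cells their position along the body axis. Their order along each cluster follows their order of use in the embryo. Where a Hox gene is silent, its promoter is usually held by Polycomb proteins and their mark H3K27me3, and in embryonic stem cells and male germ cells many of these promoters carry H3K4me3 as well. The 38 genes considered run from Hoxa2 to Hoxa13 on chromosome 6 and, in the opposite orientation, from Hoxd13 to Hoxd1 on chromosome 2 and from Hoxc13 to Hoxc4 on chromosome 15, in the RefSeq gene table of GRCm38.p6. That is another build than the one of the regions, and its gene coordinates were not used.

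H3K4me3 tends to form over promoters rich in CpG, and the Hox promoters that could be read were of mixed CpG content. RefSeq promoter sequences of GRCm38.p6, from 250 bases before to 50 bases after a gene start, were matched for 22 of the 38 genes, with 24 starts. The number of CG dinucleotides in 300 bases ranged from 4 to 45 with a median of 14.5, against a median of 7 over all 32851 promoters of the table. At least 20 CG were held by 11 of the 24 Hox promoters (45.8%) and by 26.5% of all promoters. By cluster these were 5 of 10 in Hoxa, 0 of 3 in Hoxb, 0 of 1 in Hoxc and 6 of 10 in Hoxd, so Hoxb and Hoxc were barely covered. Hoxa13 and Hoxd13, which pattern the distal limb and the genital tubercle, had the highest numbers, 45 and 37. Hoxa9, a regulator of blood progenitors, had 4 and Hoxd9 had 20. Hoxa5, needed for lung and neck development, and Hoxd1, the last gene of its cluster, each had 29. Hoxa2, which patterns the second pharyngeal arch, had 9, and Hoxb1, which acts in the hindbrain, had 10. Some of these promoters are printed below with each CG in capitals, because they span this range and cover the 4 clusters. Hoxa9 and Hoxd9 were set by rule (paralogue group 9, of which Hoxb9 and Hoxc9 had no entry), and the other 3 were chosen after their values had been seen. Their GRCm38.p6 positions are chr6:52227321-52227620 for Hoxa9 and chr6:52260831-52261130 for Hoxa13, both on the minus strand. On the plus strand lie chr11:96318017-96318316 for Hoxb4 (14 CG), chr15:103034145-103034444 for Hoxc4 (9 CG) and chr2:74697513-74697812 for Hoxd9.
Hoxa9: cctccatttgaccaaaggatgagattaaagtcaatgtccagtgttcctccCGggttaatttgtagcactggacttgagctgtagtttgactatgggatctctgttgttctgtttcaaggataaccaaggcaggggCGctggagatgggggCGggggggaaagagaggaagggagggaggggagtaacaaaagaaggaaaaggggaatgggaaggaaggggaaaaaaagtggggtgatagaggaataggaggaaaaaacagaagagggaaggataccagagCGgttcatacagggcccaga
Hoxa13: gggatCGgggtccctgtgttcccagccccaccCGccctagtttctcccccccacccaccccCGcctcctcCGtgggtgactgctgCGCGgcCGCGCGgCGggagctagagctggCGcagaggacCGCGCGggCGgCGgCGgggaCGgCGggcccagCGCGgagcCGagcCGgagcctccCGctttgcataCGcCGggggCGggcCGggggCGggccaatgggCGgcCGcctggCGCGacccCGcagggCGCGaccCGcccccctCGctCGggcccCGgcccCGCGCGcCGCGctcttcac
Hoxb4: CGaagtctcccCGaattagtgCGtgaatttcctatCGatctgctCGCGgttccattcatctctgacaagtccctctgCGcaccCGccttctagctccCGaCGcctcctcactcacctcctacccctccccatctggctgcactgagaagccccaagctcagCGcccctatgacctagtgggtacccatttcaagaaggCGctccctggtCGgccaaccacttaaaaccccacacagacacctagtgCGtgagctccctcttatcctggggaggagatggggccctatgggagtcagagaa
Hoxc4: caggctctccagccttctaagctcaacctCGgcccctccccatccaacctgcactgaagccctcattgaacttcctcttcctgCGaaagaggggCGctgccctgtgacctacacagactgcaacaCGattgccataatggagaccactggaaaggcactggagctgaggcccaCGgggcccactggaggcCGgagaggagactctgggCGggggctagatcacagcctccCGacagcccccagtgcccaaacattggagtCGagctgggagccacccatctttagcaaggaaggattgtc
Hoxd9: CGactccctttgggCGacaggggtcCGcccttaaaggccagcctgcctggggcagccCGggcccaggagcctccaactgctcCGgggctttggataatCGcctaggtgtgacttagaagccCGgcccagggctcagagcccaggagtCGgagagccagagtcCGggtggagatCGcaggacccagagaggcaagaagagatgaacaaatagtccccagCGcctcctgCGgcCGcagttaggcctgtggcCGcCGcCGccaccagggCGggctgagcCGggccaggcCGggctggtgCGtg

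**Figure D1:**
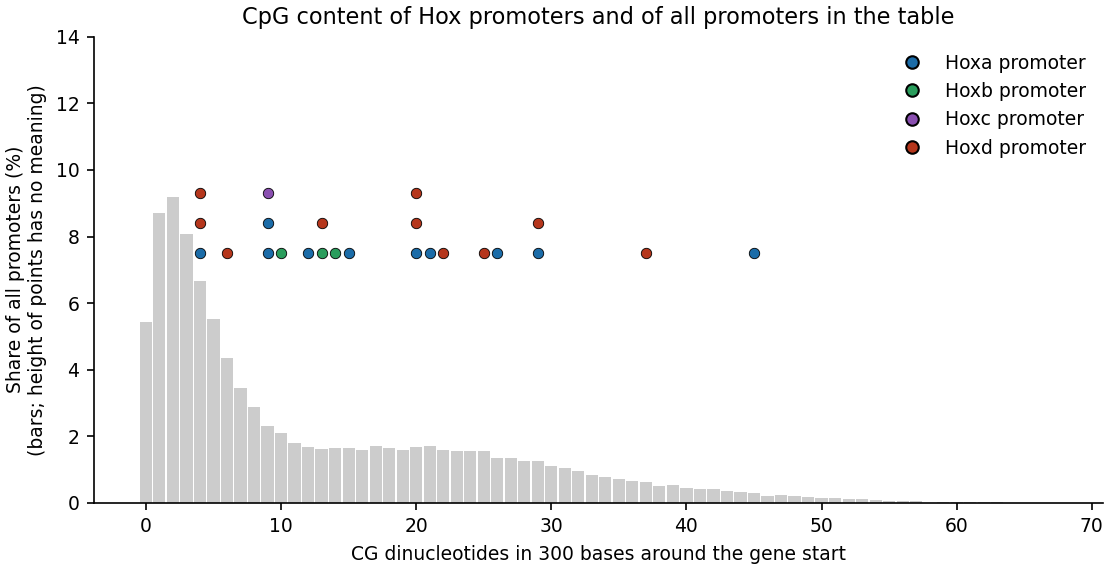
CpG content of Hox promoters. Grey bars give the share of all 32851 promoters (%) by their number of CG dinucleotides in 300 bases, and each coloured point is 1 of the 24 Hox promoters, stacked where numbers coincide; Hox promoters run from 4 to 45 CG, and 11 of them hold at least 20.

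H3K4me3 regions in the Hox windows were short and ranked low by score within their lists. Regions in the windows numbered 12 in WT66, 11 in WT74, 7 in KO67 and 12 in KO73, out of lists of 14078, 14551, 10502 and 12497 regions. They covered 1.54% of the 690 kb in WT66, 1.42% in WT74, 0.709% in KO67 and 1.65% in KO73. No Hox region reached 3000 bp in any library, whereas the lists held from 162 (KO67) to 960 (WT66) regions of that width. The widest was 2121 bp in WT66, 2011 bp in WT74, 806 bp in KO67 and 1880 bp in KO73.

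Each region has a score from the authors' tool with no stated scale, and it was read only as a rank within its own list. Of the Hox regions, 9 of 12 in WT66, 8 of 11 in WT74, 7 of 7 in KO67 and 8 of 12 in KO73 lay below the 25th percentile of the scores of their list. Their median score rank was the 18.1st percentile in WT66, the 16.0th in WT74, the 13.2nd in KO67 and the 17.6th in KO73. Above the list median stood 1 Hox region in WT66, 2 in WT74, 0 in KO67 and 2 in KO73, the highest at the 53.1st percentile. Median widths were 785 bp, 650 bp, 763 bp and 803.5 bp in the same order, against list medians of 1390, 1272, 1294 and 1187 bp. At 501 bp, the narrowest width in any list, lay 2, 3, 1 and 2 Hox regions. The Hox regions thus stood in the lower part of the lists of both genotypes.

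**Figure D2:**
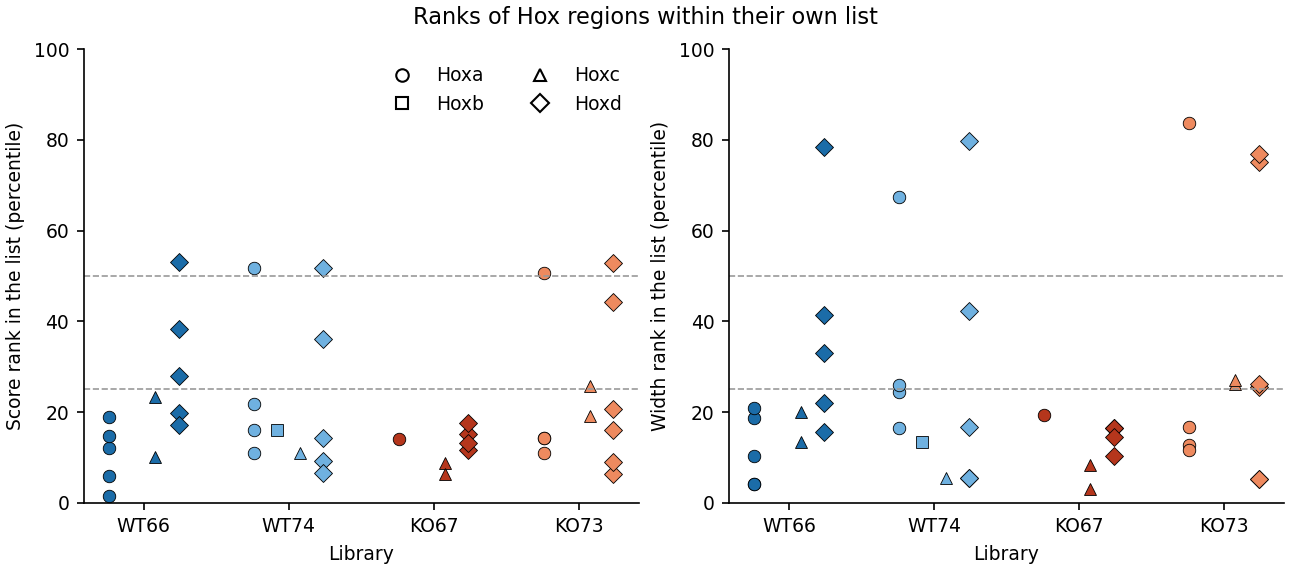
Rank of each Hox region within its own list, as a percentile of score (left) and of width (right), by library and cluster; dashed lines mark the 25th and 50th percentiles. Most points lie below the 25th percentile of score in all 4 libraries, and no Hox region of KO67 rises above the 19.3rd percentile of width.

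The clusters differed in how much of the mark they held. Hoxd held the most in every library, with 5945 bp in WT66, 4775 bp in WT74, 2957 bp in KO67 and 5939 bp in KO73, in 5, 5, 4 and 6 regions. Hoxa covered 3214, 3905, 806 and 3791 bp in the same order, in 5, 4, 1 and 4 regions. Hoxc covered 1443, 501, 1130 and 1625 bp in 1 or 2 regions. Hoxb, the longest window at 220 kb, had no region in WT66, KO67 or KO73 and a single one of 631 bp in WT74. KO67 was the lowest library in Hoxa and Hoxd, and KO73 lay between the WT values there.

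**Figure D3:**
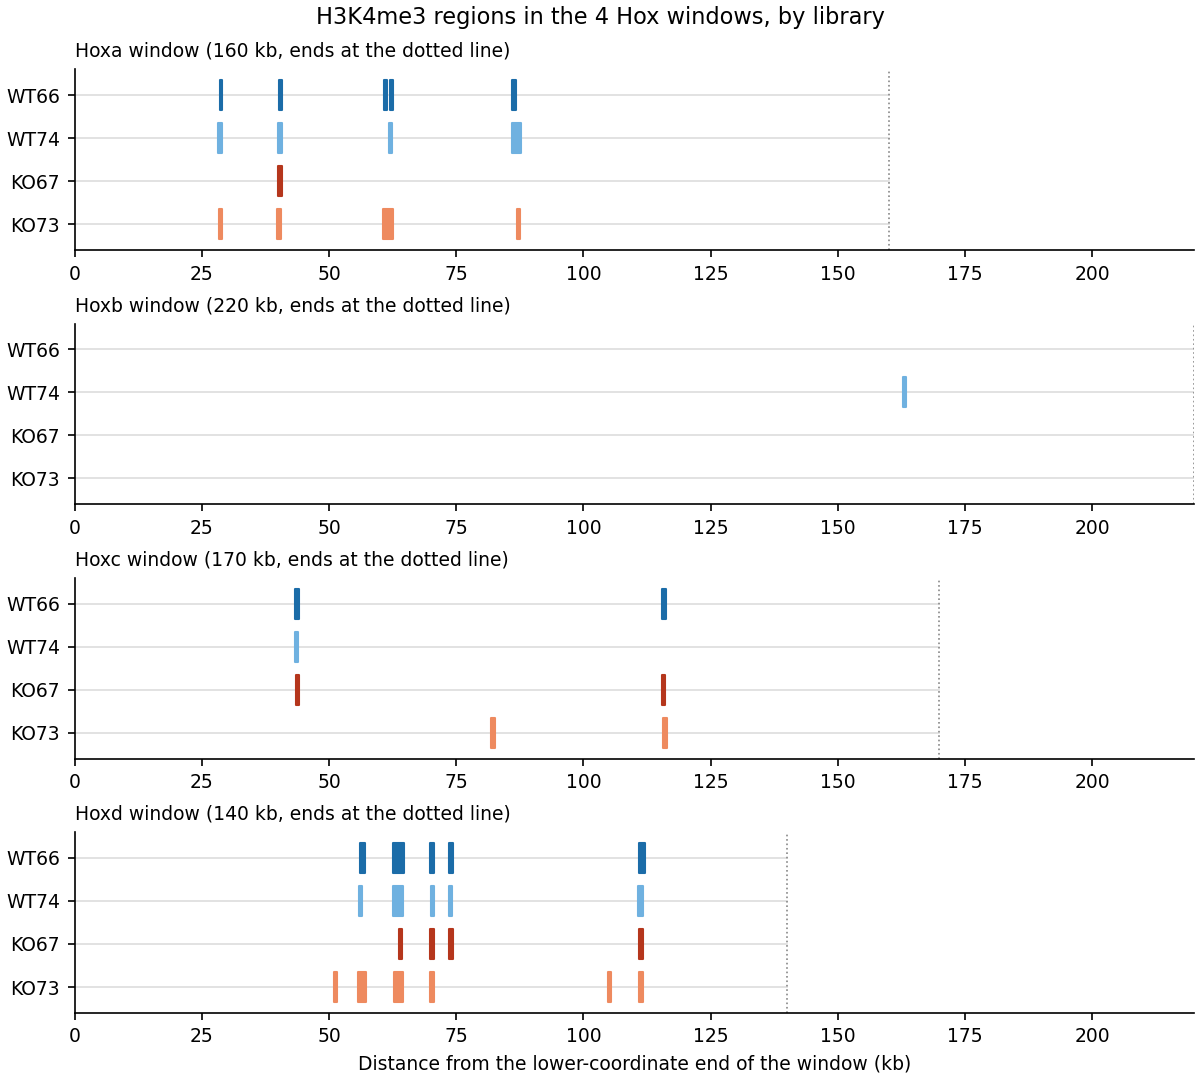
Position of every H3K4me3 region in the 4 Hox windows, with 1 track per library and the distance in kb from the lower-coordinate end of the window on the x axis. Bars are drawn to scale; Hoxd holds a group of regions between 51.1 and 74.4 kb in the tracks, Hoxb a single bar in WT74, and KO67 has 1 bar in Hoxa where the other libraries have 4 or 5.

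Loss of H3f3b was not accompanied by a difference in summed Hox covered length or number of regions larger than the spread between libraries. Covered length in the 4 windows was 10602 bp in WT66, 9812 bp in WT74, 4893 bp in KO67 and 11355 bp in KO73. The KO libraries thus lay on both sides of the WT libraries, which were close to each other. WT averaged 10207 ± 559 bp and KO 8124 ± 4569 bp (SD, n = 2 each; 2-sided exact permutation p = 1.000, adjusted p = 1.000 over 3 values). The number of regions was 11.5 ± 0.707 in WT and 9.5 ± 3.54 in KO (SD, n = 2; 2-sided exact permutation p = 1.000, adjusted p = 1.000). With 2 libraries against 2, no exact p below 0.33 was possible. By cluster, the KO minus WT difference was -1261 bp in Hoxa, -315.5 bp in Hoxb, 405.5 bp in Hoxc and -912 bp in Hoxd. The exact permutation p was 0.667 for Hoxa, Hoxc and Hoxd and 1.000 for Hoxb (adjusted p from 0.889 to 1.000 over the 4 clusters), and the genotypes overlapped in each of them.

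Seen against the whole list, Hox regions took 0.0481% of the covered length in WT66, 0.0463% in WT74, 0.0338% in KO67 and 0.0705% in KO73. The mean share was 0.0472% ± 0.00133 in WT and 0.0522% ± 0.0260 in KO (SD, n = 2; 2-sided exact permutation p = 1.000, adjusted p = 1.000). KO67 had the lowest share of the 4 libraries and KO73 the highest. The KO minus WT difference in covered length was 1148 bp without KO67 and -5314 bp without KO73. That of the share was 0.0234 percentage points without KO67 and -0.0134 without KO73. When each list was cut to its 10502 top scores, the length of KO67, Hox regions numbered 3, 3, 7 and 7 and covered 4371, 4775, 4893 and 8442 bp in WT66, WT74, KO67 and KO73 (difference 2094.5 bp, 2-sided exact permutation p = 0.333). The cut took no row from KO67 and only the lowest scores from the other lists, where most WT Hox regions ranked. A fall in the WT libraries was thus largely fixed in advance. The direction of the difference in covered length changed when KO67 was left out and when the lists were cut. Why KO67 lay below the other libraries was not tested.

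**Figure D4:**
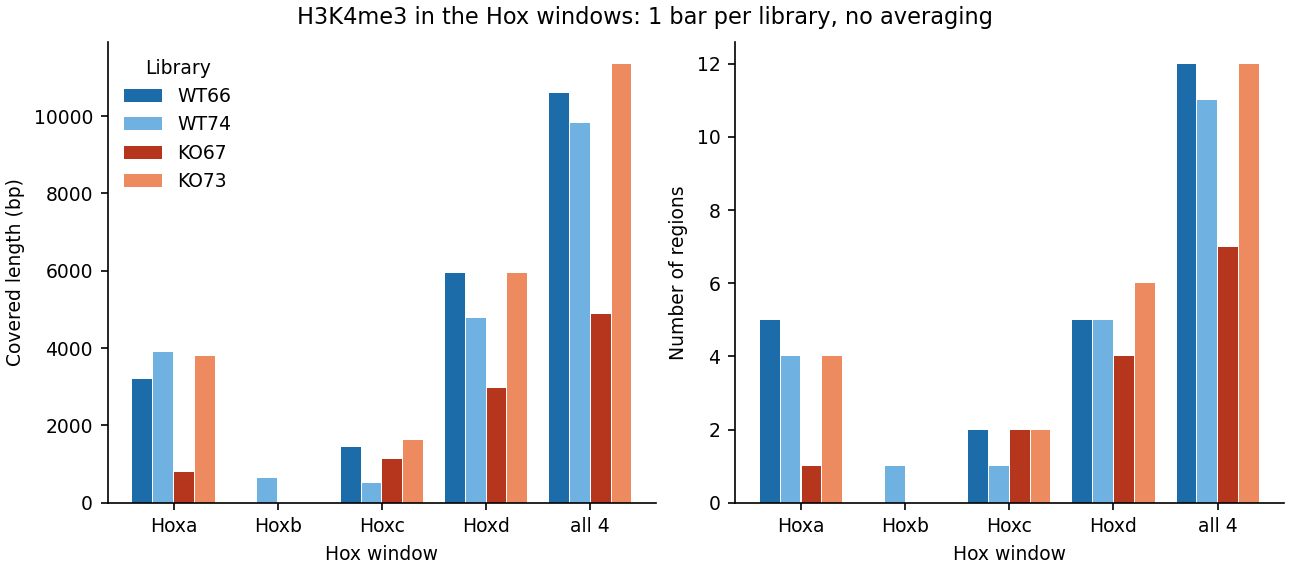
Covered length in bp (left) and number of H3K4me3 regions (right) in each Hox window and in all 4, with 1 bar per library and both axes starting at 0. In all 4 windows together KO67 stands lowest with 4893 bp and KO73 highest with 11355 bp, with WT66 and WT74 between them.

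Scores below 100 were whole multiples of a step in each list within 0.055, and a step was 0.874 in WT66, 1.39 in WT74, 0.325 in KO67 and 1.45 in KO73. If a step is 1 tag and the lists were scaled to one total, which is not stated, KO67, with the smallest Hox covered length, was 4.46 times as deep as KO73, with the largest, and WT66 and WT74 were 1.66 and 1.04 times as deep as KO73. On that reading the Hox regions rested on 23 to 110 tags in WT66, 16 to 61 in WT74, 73 to 106 in KO67 and 15 to 58 in KO73. The part of depth in the difference between the KO libraries was not tested. The lowest scores of the lists lay between 20.1 and 20.9, so a region that is not listed may carry the mark below the threshold of its list.

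No Hox region found in both WT libraries was lost from both KO libraries, and none was gained in both KO libraries. A single Hox region of the 15 (6.67%) was in 1 WT library and no KO library, against 14.5% of 16000 autosomal regions. Of the 10 merged regions found in both WT libraries, 4 were found in both KO libraries and 6 in 1 KO library only. Over autosomal regions of both WT libraries, 22.1% were absent from at least 1 KO library and 11.7% from both. Of the 5 Hox regions that KO67 and KO73 had in common, 0 were missing from WT66 and WT74 together, where the share over autosomes was 0.522%. These counts are small, were not tested and moved with single libraries. Without KO67, 2 of the 10 regions were absent from the remaining KO library, and 3 regions of KO73 were absent from both WT libraries. Without WT66, 1 region of both KO libraries was absent from WT74.

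In KO67 and in KO73, each taken alone, the share of Hox regions found lay near that of other regions of their width. Over both KO libraries jointly, the shares differed more. For each of the 10 regions, autosomal regions outside the windows with a mean WT covered length within 10% were collected, from 360 to 1680 per region. On average over the 10 sets, 58.8% of these were present in KO67 and 71.3% in KO73. Of the Hox regions, 6 of 10 were present in KO67 and 8 of 10 in KO73. Of the 7 Hox regions below 1000 bp, 5 were absent from a KO library, against 50.2% of 2884 autosomal regions of that width. Of the 15 merged Hox regions, 40% were in both WT libraries and a single KO library. This share was 8.28% of the 12578 autosomal regions whose widest covered length lay within the range of the Hox regions. The share in all libraries was 26.7% for Hox against 51.7%, and that in both WT and no KO library 0% against 10.1%. These joint shares were not tested, and the 12578 autosomal regions were matched on the range of widths only. Among regions of both WT libraries, 7 of 10 in Hox but 2884 of 12226 on autosomes were below 1000 bp. Of those 2884, 50.2% were absent from a KO library, against 22.1% at all widths. The Hox and autosomal joint shares thus come from unlike widths. The score of a Hox region lay below the median of regions of like width in 6 of 10 cases in WT66 and 8 of 10 in WT74.

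In Hoxd, the widest Hox region of the WT testes had a smaller covered length in both KO libraries, a difference that did not pass the test. It spanned chr2:74542493-74544676 and covered 2121 bp in WT66, 2011 bp in WT74, 643 bp in KO67 and 1686 bp in KO73. Its log2 width change, KO minus WT, was -0.99 ± 0.44 (SE; limma with Benjamini-Hochberg adjustment over 9742 regions, adjusted p = 0.301). The KO values lay below both WT values but were themselves far apart. Regions were named by their mean WT width, a choice that by itself favours smaller KO widths. Autosomal regions of like WT width had a median log2 change of -0.22, with quartiles of -0.41 and -0.11, and 91.5% of them were present in KO67 and 95.0% in KO73. Its score rank was the 53.1st percentile in WT66, the 51.7th in WT74, the 11.6th in KO67 and the 44.2nd in KO73.

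A second Hoxd region, chr2:74590707-74592132, nearest to the end of the window that carries Hoxd1 in the GRCm38.p6 order, had similar, smaller widths in both KO libraries but did not pass the test. It covered 1205 bp in WT66, 1112 bp in WT74, 763 bp in KO67 and 807 bp in KO73, so the genotypes did not overlap. WT averaged 1158.5 ± 65.8 bp and KO 785 ± 31.1 bp (SD, n = 2), and the log2 change was -0.56 ± 0.18 (SE; limma adjusted p = 0.180). Regions of like WT width had a median log2 change of -0.11, with quartiles of -0.29 and 0.01. Its score rank was 38.3 and 36.1 in the WT lists and 13.2 and 16.1 in the KO lists.

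The other Hoxd regions did not move one way. On chr2:74535611-74537254, coverage was 1045 bp in WT66 and 650 bp in WT74, none in KO67 and 1644 bp in KO73. KO73 was thus wider than both WT libraries there, and its score rank was 52.8 against 27.9 and 14.4 in WT66 and WT74. The region chr2:74549861-74550712 covered 751 and 501 bp in the WT libraries and 776 and 800 bp in KO67 and KO73, with a log2 change of 0.36 ± 0.26 (SE; limma adjusted p = 0.507). Autosomal regions of like WT width had a median log2 change of 0.24, with quartiles of 0.02 and 0.37. The neighbouring region chr2:74553526-74554422 covered 823 bp in WT66, 501 bp in WT74 and 775 bp in KO67 and was absent from KO73. These last 2 regions lie outside the rule for named regions and were chosen after their values had been seen.

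In Hoxa, 1 of 4 regions was found in all libraries. It spanned chr6:52119853-52120847 and covered 778 bp in WT66, 810 bp in WT74, 806 bp in KO67 and 628 bp in KO73 (log2 change -0.16 ± 0.22 SE, limma adjusted p = 0.737). The other 3 Hoxa regions were present in KO73 and absent from KO67. On chr6:52140637-52142605, WT66 had 2 short rows that summed to 1131 bp, WT74 had 648 bp, and KO73 had a single row of 1880 bp. The score rank there was 14.7 in WT66, 11.0 in WT74 and 50.7 in KO73, so that KO73 was both wider and higher in its list than either WT library. The region chr6:52165876-52167703 went the other way, with 804 bp in WT66, 1652 bp in WT74 and 652 bp in KO73. Here the WT libraries differed by more than WT66 and KO73 did. The narrowest of them, chr6:52108257-52109051, covered 501 bp in WT66, 795 bp in WT74 and 631 bp in KO73, and is given for completeness outside the rule for named regions. No Hoxa region lay beyond 87.7 kb from the lower end of the 160 kb window, the end that carries Hoxa2 in the GRCm38.p6 order, so the side of Hoxa13 was without regions in all 4 libraries.

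In Hoxc and Hoxb every region was missing from at least 1 library. The Hoxc region chr15:102773338-102774082 covered 651 bp in WT66, 501 bp in WT74 and 629 bp in KO67 and was absent from KO73. The Hoxc region chr15:102845486-102846390 covered 792 bp in WT66, 501 bp in KO67 and 817 bp in KO73 and was absent from WT74. Presence in these regions did not follow the genotype. The one Hoxb region, chr11:96202865-96203495, had a score of 29.3 in WT74, at the 16.0th percentile of that list.

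Across the 4 Hox regions found in all libraries, none passed the limma test of width at an adjusted p of 0.05, and 1 had an unadjusted p below 0.05. Over the whole table, 352 of 9742 regions (3.61%) passed and 1901 had an unadjusted p below 0.05. Both KO widths lay below both WT widths in 2 of the 4 Hox regions, where this held for 47.4% of all 9742, and above them in 1, where the share was 4.74%. Those shares are over all widths. The Hox region with larger KO widths covered 501 bp in WT74, the narrowest width in any list. Its log2 change of 0.36 lay within the quartiles of regions of like WT width, 0.02 and 0.37. The median log2 change was -0.36 over the 4 Hox regions and -0.18 over the whole table. Without KO73, when 6 Hox regions could be compared, the median was 0.081, and without KO67, with 8 regions, it was -0.15. The 2 wider Hoxd regions lay below the lower quartile of the log2 change of regions of like width, which describes these libraries and was not tested.

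**Figure D5:**
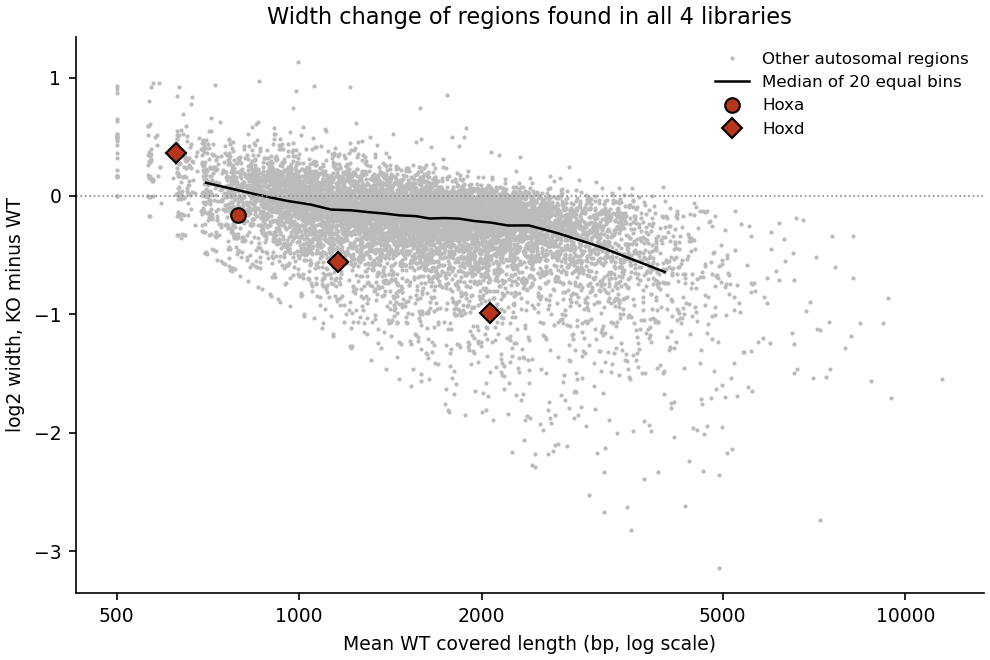
Log2 width change, KO minus WT, against mean WT covered length in bp (log scale) for autosomal regions found in all 4 libraries, with the 4 Hox regions in colour and the median of 20 bins of equal size as a line. The Hox regions have log2 changes of 0.36 and -0.16 below 1000 bp, -0.56 at 1158.5 bp and -0.99 at 2066 bp.

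The sequence next to the clusters held fewer regions per kb than the clusters, and wider and higher-scoring ones. In windows of the same length directly on each side, chosen for comparison after the lists had been seen, every library held 12 regions in 1380 kb, 0.870 per 100 kb, against 1.74, 1.59, 1.01 and 1.74 per 100 kb of the Hox windows in WT66, WT74, KO67 and KO73. The flanking regions covered 20442 bp in WT66, 19218 bp in WT74, 15065 bp in KO67 and 15402 bp in KO73. The whole lists covered 22.0 Mb, 21.2 Mb, 14.5 Mb and 16.1 Mb in the same order. In the summed flanks KO was lower than WT in every pairing of libraries, as in the whole lists. The KO minus WT difference was -23.2% in the mean (2-sided exact permutation p = 0.333, the smallest possible). By cluster, the genotypes separated only beside Hoxc, with 8486 and 7244 bp in WT66 and WT74 against 3432 and 5193 bp in KO67 and KO73. Beside Hoxa, Hoxb and Hoxd they overlapped. Flanking regions were wider than the Hox regions, with medians of 1659.5, 1485.5, 1254 and 1188 bp. Their median score ranks were 59.7, 63.5, 43.6 and 50.6 in the same order. Regions covered 1.48% of the flanks in WT66, 1.39% in WT74, 1.09% in KO67 and 1.12% in KO73, against 1.54%, 1.42%, 0.709% and 1.65% of the Hox windows. Coverage per kb was thus higher in the clusters than beside them in WT66, WT74 and KO73 and lower in KO67. The flanks being longer in sum, Hox covered length was 51.9%, 51.1%, 32.5% and 73.7% of flank covered length in the same order (2-sided exact permutation p = 1.000), so a difference between clusters and flanks in their response to genotype was not shown.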

How the data were processed

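H3K4me3 ChIP-seq of adult mouse testis was deposited as 1 list of regions per library (2 WT, 2 KO). Bowtie, HOMER and the build mm9 are named per the submitters' processing notes. Not given in the sources used here are settings, filters and the use of the inputs. Each of the deposited lists gives start, end and a score of unstated scale for each region, as the authors' tool wrote it. Total read counts are unknown.

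Starts were converted to count from 1. Rows that overlapped or touched were merged, first within and then across libraries, and covered length was the summed width of rows. Rows that overlapped a Hox window were members, and named with values were the 3 widest by WT mean per cluster and any lost, gained or passing the width test, besides those said to be chosen later. Values per library were tested by exact permutation (2-sided) over all 6 ways of assigning the genotypes. Log2 widths of the 9742 regions of all 4 libraries were fitted with limma 3.58.1 (R 4.3.3, variance trend, Benjamini-Hochberg over all regions), which was tested on simulated data. The outcome of that test is not reported here. Replicate SDs come from 2 libraries each. The windows, members and comparisons were chosen with earlier results of these data known. Alternatives were a stricter score threshold, lists of one length, other window edges, merging and overlap rules, other scalings and limma settings, and leaving out each library.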

Additional observations from a re-analysis of the deposited data

How the results depend on the processing

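No paired analysis was possible because WT and KO libraries carry different numbers in the labels, and the numbers are shared only with input libraries that have no list here.

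The exact tests could not reach significance in any setting, and limma called 0 Hox regions in each fit that was run. With a library left out, the lone one of its genotype was assumed to vary like the others. Directions were not stable. With rows below the 25th percentile of score dropped, KO67 kept 0 Hox regions, since all 7 of its Hox regions lay below that percentile. The KO minus WT difference in the Hox share of the list was then -0.00248 percentage points, and that of the number of regions -1. It was 114 bp in Hoxa, 0 bp in Hoxb and -2082 bp in Hoxd, with KO67 at 0 in each. The 2 Hox regions left in both WT libraries were thus bound to be absent from a KO library, and no Hox region could enter the fit of widths. Holding lists to the length of the shortest took no row from KO67 and only the lowest scores from the others. The differences were then 2094.5 bp and 4 regions in all windows and 0.0211 percentage points in the share. By cluster they were 517 bp in Hoxa, 0 bp in Hoxb, 1377.5 bp in Hoxc and 200 bp in Hoxd. In that setting 0 regions were absent from a KO library and 2 were in both KO and neither WT library. The median log2 change of the 2 regions tested was -0.77. With windows extended by 50 kb on both sides, the differences were -3634 bp and 0.00242 percentage points. In a comparison chosen after seeing the data, KO73 exceeded WT74 by 1543 bp, 1 region and 0.0243 percentage points.

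Leaving out 1 library at a time, covered length differed by -5314 to 1148 bp, the share by -0.0134 to 0.0234 percentage points and the number of regions by -4.5 to 0.5. Hoxa ran from -2753.5 to 231.5 bp, Hoxb from -631 to 0 bp, Hoxc from -65.5 to 876.5 bp and Hoxd from -2403 to 579 bp. Regions absent from a KO library numbered 2 to 7 and those in KO and not in WT 0 to 3. The median log2 change ran from -0.35 to 0.081. It was -0.13 with library medians subtracted and -0.10 over the 10 regions of both WT libraries with absent ones set to the narrowest width. The cause of these shifts was not tested, and the number of regions that each setting leaves was only counted.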

Other observations

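The share of Hox regions that the KO libraries had in common was smaller than that of autosomal regions, by counts that were not tested. Of the 7 Hox regions of KO67, 5 (71.4%) were also in KO73, and of the 12 of KO73, 5 (41.7%) were in KO67. Over autosomal regions the shares were 96.7% and 81.9%. All 7 Hox regions of KO67 were also in WT66. The WT libraries shared 10 of 11 Hox regions each (90.9%), close to 90.1% and 87.5% over autosomes. Most Hox regions rank low in their lists, and no autosomal set of like rank was compared for this sharing.

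KO73 held 3 regions that no other library had. They lie in Hoxd at chr2:74531057-74531557 and chr2:74584880-74585380, each 501 bp wide, and in Hoxc at chr15:102811860-102812667, 808 bp wide. Their score ranks in KO73 were 6.37, 8.92 and 25.7. Regions found in 1 KO library and no WT library made up 3 of 15 merged Hox regions (20%) and 3.94% of the 16000 autosomal ones. The share was 5.02% of the 12578 whose widest covered length lay within the range of the Hox regions, a set matched on that range only.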
